A study of Mus musculus with 4 samples.

Results

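The 39 genes described here encode the transcription factor Tfeb and its relatives, the calcium channel Mcoln1, membrane proteins and enzymes of the lysosome, and subunits of the vacuolar proton pump (V-ATPase). They were chosen as the probes of 4 Agilent mouse expression arrays whose gene name is on a fixed list of symbols. The list has no threshold on a measured value but was drawn up with earlier results of these data known, and its genes are 39 of 36086 genes or names on the array. The design named 37 of them by the current symbol, and Tfeb and Tfe3 stand there under the older names Tcfeb and Tcfe3. The 39 genes have 47 probes, 2 each for 8 genes and 1 each for 31.

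Each array was hybridised with Cy3-labelled cRNA from 1 culture of RAW264.7, an established mouse macrophage-like line, and there were 4 groups of 1 array. The first group was labelled as Linc-AAM knockdown cells given 50 µg/mL AEPS for 4 h, and the second as Linc-AAM knockdown cells kept in plain DMEM for 4 h. The third was labelled as scramble cells given 50 µg/mL AEPS for 4 h, and the fourth as scramble cells kept in plain DMEM for 4 h. Linc-AAM is a long intergenic non-coding RNA, and AEPS is a polysaccharide preparation of Actinidia eriantha roots. All 4 cultures carried a stably integrated artificial-microRNA vector that also encodes a green fluorescent protein, and were kept under blasticidin selection as bulk cultures, so neither line is a single clone. The study asked how AEPS and the loss of Linc-AAM alter expression.

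A level below is the log2 processed intensity of a probe minus the 75th percentile of its array, so that 0 is the brightness of the 75th-percentile spot. Differences between levels are on the same log2 scale. Levels of different probes are not set against each other, because probes differ in brightness. Between 53.4% and 58% of the spots of an array were well above background, and the 75th percentile lay between 439.1 and 587.7 intensity units. All 39 genes were well above background on all 4 arrays and none of their probes was saturated, where 56.4% of all genes or names were well above background on all 4. The macrophage label was checked on 8 marker genes (such as Csf1r, Itgam and Spi1), and all 8 were well above background on every array. Of 4 fibroblast markers, Col1a2 was well above background on all 4 arrays, Col1a1 on 3, Dcn on 2 and Pdgfra on 0. Col1a1 had levels of -3.87 and -2.85 on the AEPS arrays labelled knockdown and scramble against -5.60 and -5.15 on the DMEM arrays, and Col1a2 had -2.96 and -3.05 against -3.74 and -3.70. Of 4 T cell markers Cd3e and Cd4 were well above background, of 3 B cell markers Cd79a was, and of 3 epithelial markers Krt18 was on 1 array. The part of these markers in the results was not tested. A level comes from RNA of a whole culture, so fewer cells of a kind and less RNA per cell cannot be told apart.

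Which array belongs to which line could not be settled. The deposited value table of the authors has a column for each array, and each column ranks the probes as the array of the other line under the same treatment does (Spearman's rho 1.0, against 0.969 with the array of its own name). No probe is named for Linc-AAM, so the knockdown itself could not serve as a check of the labels. The text therefore writes "labelled knockdown" and "labelled scramble" as the scanner files do. Under the names of the value table, the lines are exchanged, so line differences turn their sign and the AEPS effects of the 2 lines trade places. The AEPS effect fitted over both lines is the same under either naming. With 1 array per group, a pair of arrays was compared by size alone, at 2-fold or more. The AEPS effect over both lines and the line effect over both media were tested with limma, in 1 additive fit with 1 residual degree of freedom. The residual of this fit is the difference in AEPS response between the 2 lines, which cannot be told apart from technical spread. A gene whose response differs between the lines therefore gets a larger SE. Also, limma draws the variance of each gene toward a value shared by all genes (prior degrees of freedom 2.82). An SE below is thus not the spread of that gene alone. Nothing in the labels says that a culture was repeated, so these p-values do not measure the spread between repeated cultures.

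Lysosomes break down material from endocytosis, phagocytosis and autophagy, and macrophages depend on them to digest what they engulf. TFEB, TFE3 and MITF are related basic helix-loop-helix factors that bind E-box sequences upstream of many lysosomal genes. They are held in the cytoplasm when mTORC1 is active on the lysosome surface, and calcium released through MCOLN1 activates calcineurin, which frees them to enter the nucleus. The V-ATPase pumps protons into the lysosome through its membrane ring and stalk (V0) with energy from ATP split by the cytoplasmic sector (V1), and the acid it makes is needed by the cathepsins and glycosidases.

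The E-box of this family has the core CACGTG, and it was searched on both strands of RefSeq promoter windows (GRCm38.p6, 250 bases before to 50 after each gene start). Of the 39 genes, 32 have a window, and 11 of these 32 (34.4%) hold CACGTG, where 8.09% of 27025 genes with a window do. The longer form TCACGTG, which contains CACGTG, is in 10 of the 32 (31.2%), where 4.29% of all genes with a window have it. The 11 genes are Atp6v0d1, Atp6v1a, Ctsa, Ctsd, Ctsl, Gaa, Gla, Glb1, Lamp1, Mcoln1 and Naglu. Stretches of 4 of them, all read on the plus strand, are shown because the effects of these genes are set beside the motif further on, with CACGTG in capitals. Lamp1 holds it at -61, -45, -28 and -15 from the gene start (chr8:13159091-13159160), Mcoln1 at -71 and -45 (chr8:3500439-3500488), Naglu at -73 (chr11:101070009-101070038) and Glb1 at -48 (chr9:114401018-114401047).
Lamp1: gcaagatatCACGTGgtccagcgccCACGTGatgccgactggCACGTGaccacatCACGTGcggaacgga
Mcoln1: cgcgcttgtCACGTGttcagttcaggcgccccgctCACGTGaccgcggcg
Naglu: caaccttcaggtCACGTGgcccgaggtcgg
Glb1: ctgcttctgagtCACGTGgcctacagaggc
A match is a description of these letters, not a measured binding site.

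With AEPS, 2 of the 39 genes rose and 2 fell over both lines (limma, Benjamini-Hochberg adjusted p under 0.05 over 22341 genes). Cathepsin H (Ctsh) and the V-ATPase subunit gene Atp6v0a1 rose, and Tfeb and the cholesterol exporter gene Npc1 fell. Over all genes tested, 7.4% were called higher and 7.29% lower, and the count of 2 of 39 in each direction is a smaller share than either. The median AEPS effect of the 39 genes was -0.03, against 0.07 over all genes tested, and 32 of the 39 (82.1%) had an effect under 0.5 in size, where 74.5% of all genes did. At an unadjusted p under 0.05, 10 of the 39 were higher and 6 lower (41% in all, where 33.9% of all genes tested were). All 4 calls are lost when genes near background are not filtered out before the fit, with adjusted p between 0.0905 and 0.158 for these 4 genes. With an intensity trend in limma's variance prior, 11 of the 39 genes were called higher and 5 lower. In that setting 16.2% of all genes were called higher and 13.8% lower.

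**Figure D1:**
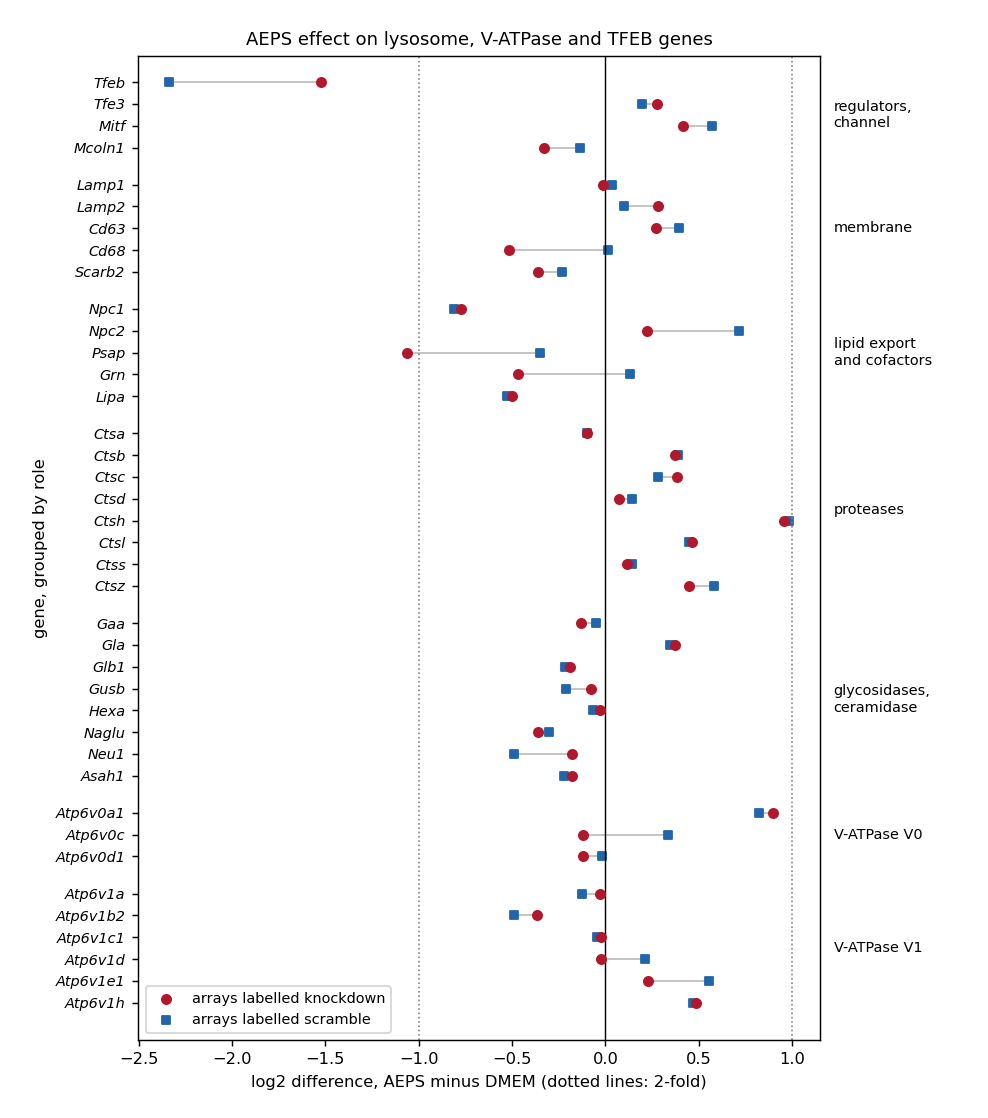
AEPS effect of each of the 39 genes, as the log2 difference AEPS minus DMEM on the arrays labelled knockdown (red circles) and on the arrays labelled scramble (blue squares), grouped by role, with dotted lines at 2-fold. Tfeb lies below -1 on both lines and Psap on the arrays labelled knockdown, and 34 of the 39 genes have both points on the same side of 0.

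Tfeb, the factor that gives the family its best-known role in lysosome biogenesis, had levels of -1.65 and -1.74 on the AEPS arrays labelled knockdown and scramble, against -0.13 and 0.59 on the DMEM arrays labelled knockdown and scramble. Both AEPS arrays were low and both DMEM arrays high, with no overlap. Its processed intensities were 143 and 152 on the AEPS arrays labelled knockdown and scramble, and 402 and 886 on the DMEM arrays in the same order. Tfeb was thus 2.87-fold lower with AEPS on the arrays labelled knockdown and 5.05-fold lower on the arrays labelled scramble, the largest change in size among the 39 genes in both comparisons. Over both lines it fell by 1.93 ± 0.24 on the log2 scale (SE, 4 arrays; limma, adjusted p = 0.0233). With normexp background correction, which adds an offset of 50 intensity units, the differences were -1.12 on the arrays labelled knockdown and -1.90 on the arrays labelled scramble. The Tfeb probe lies at chr17:47929089-47929148 (mm9, as the scanner files give it), and its exon or UTR was not looked up, because no annotation of that build was used.

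Tfe3 and Mitf, the relatives of Tfeb, did not pass the test. Tfe3 had levels of 4.95 and 4.65 on the AEPS arrays labelled knockdown and scramble, against 4.67 and 4.45 on the DMEM arrays labelled knockdown and scramble. The ranges of the treatments overlapped by little: the lower AEPS array lay just under the higher DMEM array, and its AEPS effect was 0.24 ± 0.11 (SE; limma, adjusted p = 0.238). Its second probe gave differences of 0.30 and 0.09 on the arrays labelled knockdown and scramble.

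Mitf had levels of 5.76 and 5.67 on the AEPS arrays labelled knockdown and scramble, against 5.34 and 5.10 on the DMEM arrays labelled knockdown and scramble. Both AEPS arrays lay above both DMEM arrays, and the effect was 0.49 ± 0.12 (SE; limma, adjusted p = 0.0753). It passed the threshold with normexp background correction (adjusted p = 0.0196), on genes well above background on all 4 arrays (0.045) and with an intensity trend (0.00304). Quantile normalization gave 0.31 (adjusted p = 0.185). The second Mitf probe gave differences of 0.64 and 0.52 on the arrays labelled knockdown and scramble.

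Mcoln1, which encodes the lysosomal calcium channel mucolipin-1, had levels of 3.24 and 3.39 on the AEPS arrays labelled knockdown and scramble, against 3.58 and 3.53 on the DMEM arrays labelled knockdown and scramble. Both AEPS arrays were the lower ones, but the difference did not pass the test (-0.23 ± 0.12, SE; limma, adjusted p = 0.266). The 4 regulators thus had no common direction: Tfeb fell, Mcoln1 was below 0 and Tfe3 and Mitf were above 0 on both lines.

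**Figure D2:**
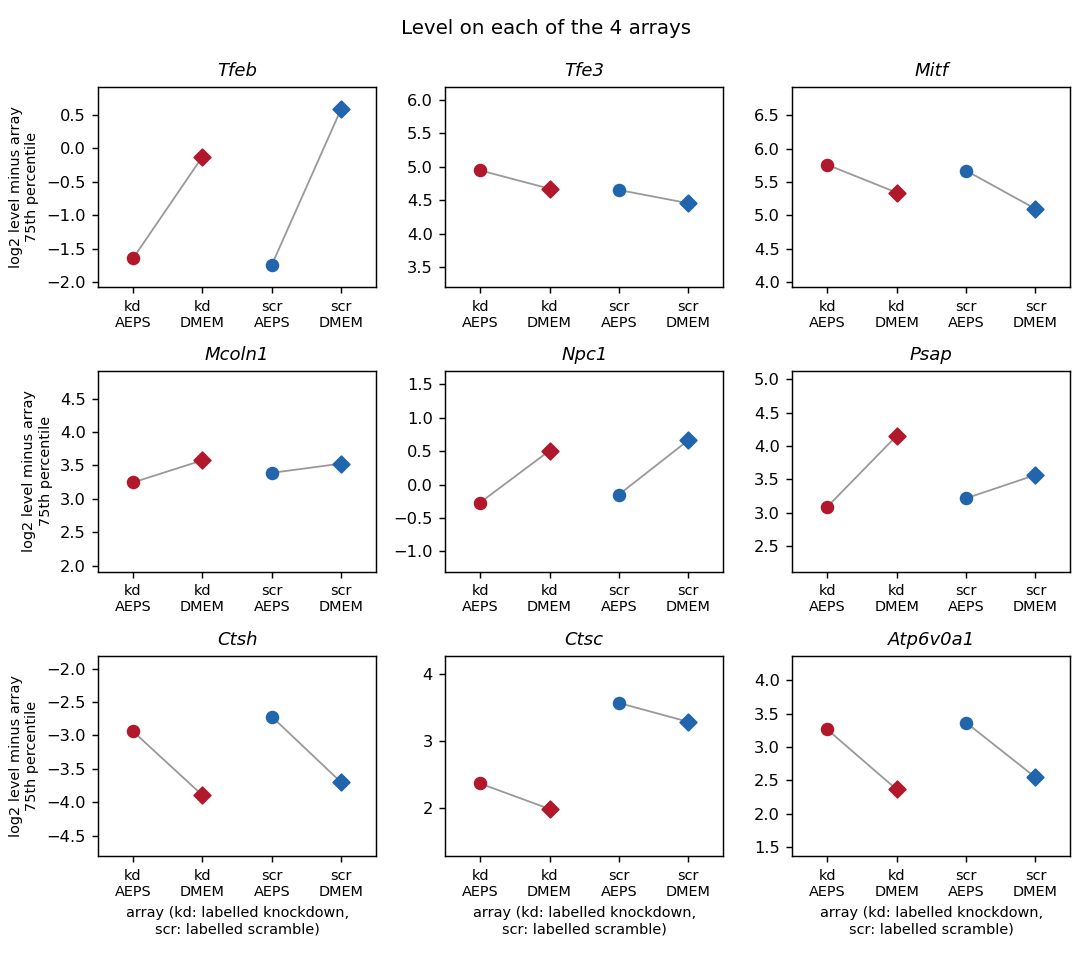
Level of 9 genes on each of the 4 arrays (log2 processed intensity minus the array's 75th percentile), with AEPS as circles and DMEM as diamonds, red for arrays labelled knockdown (kd) and blue for arrays labelled scramble (scr), and a line joining the arrays of each line. Tfeb and Npc1 are lower on both AEPS arrays, Ctsh and Atp6v0a1 are higher on both, and Ctsc separates the lines instead of the treatments.

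Among the 5 lysosomal membrane proteins, 0 passed limma's test (1 at an unadjusted p under 0.05, Cd63) and the median AEPS effect was 0.01, with a range of -0.30 to 0.33. Lamp1, a heavily glycosylated protein that lines the inner face of the lysosome membrane and is the common marker of lysosomes, had almost the same level everywhere. Its levels were 7.64 and 7.68 on the AEPS arrays labelled knockdown and scramble, and 7.65 and 7.64 on the DMEM arrays labelled knockdown and scramble. Lamp2, which also serves chaperone-mediated autophagy, had an effect of 0.19 ± 0.12 (SE; limma, adjusted p = 0.34). Cd68, the macrophage member of the family, had differences of -0.52 on the arrays labelled knockdown and 0.02 on the arrays labelled scramble. The remaining pair, the tetraspanin gene Cd63 and Scarb2, which encodes the receptor that carries glucocerebrosidase to lysosomes, had effects of 0.33 and -0.30.

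The 5 genes of lipid export, lipid hydrolysis and activator proteins had the lowest median of the 7 roles, -0.51. In this role 4 genes lay below 0 and 1 above 0, where 9512 of all 22341 genes tested lay below 0. Npc1, which moves cholesterol out of the lysosome, had levels of -0.27 and -0.15 on the AEPS arrays labelled knockdown and scramble, against 0.51 and 0.67 on the DMEM arrays labelled knockdown and scramble. The treatments did not overlap, and Npc1 was 1.71-fold lower with AEPS on the arrays labelled knockdown and 1.76-fold lower on the arrays labelled scramble. Over both lines it fell by 0.79 ± 0.11 on the log2 scale (SE, 4 arrays; limma, adjusted p = 0.0297). Npc2, the soluble protein that hands cholesterol to NPC1, lay on the other side of 0, with an effect of 0.47 ± 0.17 (SE; limma, adjusted p = 0.153).

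Psap, the precursor of the saposins that assist sphingolipid hydrolases, had levels of 3.09 and 3.22 on the AEPS arrays labelled knockdown and scramble, against 4.15 and 3.57 on the DMEM arrays labelled knockdown and scramble. The DMEM array labelled knockdown was the high one, and the other 3 lay between 3.09 and 3.57. Psap was 2.09-fold lower with AEPS on the arrays labelled knockdown and 1.27-fold lower on the arrays labelled scramble, and the effect over both lines did not pass the test (-0.71 ± 0.21, SE; limma, adjusted p = 0.113). Grn, which encodes progranulin, a partner of prosaposin in transport to the lysosome, had differences of -0.47 on the arrays labelled knockdown and 0.13 on the arrays labelled scramble. Lipa, the acid lipase that frees cholesterol from its esters, had -0.50 and -0.53 on the same pairs (limma effect -0.51 ± 0.11, SE; adjusted p = 0.0641). Lipa was called lower with normexp, with quantile normalization, on genes well above background on every array, with the intensity trend and with the value table, and Psap was with normexp and the trend. Without adjustment, 3 of the 5 genes (Npc1, Psap and Lipa) were lower and 0 higher at a limma p under 0.05. Among all 22341 genes tested, 3666 were lower and 3916 higher at that p.

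For the 8 cathepsins, lysosomal proteases that degrade engulfed and autophagic protein, 7 effects lay above 0 and 1 below, and 1 passed the test (5 were higher and 0 lower at an unadjusted p under 0.05). Of all 22341 genes tested, 57.4% lay above 0, and 3916 were higher and 3666 lower at that p. The cathepsin median was 0.36, and with the mean over probes 6 cathepsins lay above 0 and 2 below. With quantile normalization the median was 0.11 with 5 above 0 and 3 below, and the authors' deposited table gave 0.18 with 5 above 0 and 3 below. Quantile normalization moved the median AEPS effect of all genes to -0.03, against 0.07 with percentile scaling, and that of the 39 genes to -0.20, against -0.03. Under it the medians were -0.15 for the regulators, -0.28 for the membrane proteins, -0.11 for the V0 genes and -0.12 for the V1 genes.

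Ctsh, an aminopeptidase among the cathepsins, was the one that passed. It had levels of -2.94 and -2.72 on the AEPS arrays labelled knockdown and scramble, against -3.90 and -3.70 on the DMEM arrays labelled knockdown and scramble. Both AEPS arrays were high and both DMEM arrays low, without overlap. The probe was dim, with processed intensities of 58.5 and 77.4 on the AEPS arrays labelled knockdown and scramble and 29.5 and 45.1 on the DMEM arrays in the same order. Ctsh was 1.94-fold higher with AEPS on the arrays labelled knockdown and 1.98-fold higher on the arrays labelled scramble, and over both lines it rose by 0.97 ± 0.11 on the log2 scale (SE, 4 arrays; limma, adjusted p = 0.0216). With normexp background correction the rise was 0.48 (adjusted p = 0.0211). The Ctsh probe lies at chr9:89970828-89970887 (mm9).

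Ctsb, an abundant cathepsin with endo- and exopeptidase activity, had AEPS differences of 0.37 and 0.39 on the arrays labelled knockdown and scramble, and Ctsl, an endopeptidase, had 0.46 and 0.45. Neither passed the test (limma, adjusted p = 0.108 for Ctsb and 0.0786 for Ctsl). Ctsz, a carboxypeptidase, had an effect of 0.51 (adjusted p = 0.0684). Ctsl and Ctsz were called higher with normexp, on genes well above background on every array and with the intensity trend, and Ctsb with normexp and the trend. Ctsa, the carboxypeptidase that shields beta-galactosidase and neuraminidase, had the only effect below 0 among the cathepsins, at -0.10. Ctss, which trims the invariant chain of MHC class II, and Ctsd, the aspartic protease, had 0.13 and 0.11. The probes of 2 genes disagreed: the second Ctsd probe gave -0.50 on the arrays labelled knockdown, where the main one gave 0.07, and the second Ctsa probe gave -0.50 and -0.63 on the arrays labelled knockdown and scramble, where the main one gave -0.10 on both.

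The 7 glycosidases and acid ceramidase (Asah1), which remove sugars from glycogen, glycolipids and glycosaminoglycans or split ceramide, had a median effect of -0.17, with 7 genes below 0 and 1 above 0, and 0 of the 8 passed limma's test (Gla and Naglu did at an unadjusted p under 0.05). Among all 22341 genes tested, 9512 lay below 0. The counts of 7 below and 1 above in this role were the same with normexp, with quantile normalization, with the mean over probes and with the deposited value table. Glb1, the beta-galactosidase, had an effect of -0.20 ± 0.11 (SE; limma, adjusted p = 0.286), and Asah1 had -0.20 ± 0.11 (adjusted p = 0.295). Gusb, the beta-glucuronidase, had -0.14 ± 0.12 (adjusted p = 0.441). The Gusb probe was printed 10 times per array, and its spots on 1 array had an SD of 0.015 to 0.029, smaller than the AEPS differences of -0.08 and -0.21 on the arrays labelled knockdown and scramble. Spots of 1 array share the RNA, so this SD holds error between spots and not the spread between cultures. The exception was Gla, the alpha-galactosidase, with 0.37 and 0.35 on the same pairs (limma effect 0.36, adjusted p = 0.121). The lowest effects were those of Naglu, which acts on heparan sulfate, and of the sialidase gene Neu1, both at -0.33.

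Of the 3 genes of the V-ATPase membrane sector V0, Atp6v0a1 passed the test. It encodes an isoform of the large stator subunit, and its levels were 3.26 and 3.37 on the AEPS arrays labelled knockdown and scramble, against 2.37 and 2.55 on the DMEM arrays labelled knockdown and scramble. Both AEPS arrays were high, with no overlap, and Atp6v0a1 was 1.86-fold higher with AEPS on the arrays labelled knockdown and 1.77-fold higher on the arrays labelled scramble. Over both lines it rose by 0.86 ± 0.11 on the log2 scale (SE, 4 arrays; limma, adjusted p = 0.0266). Its probe lies at chr11:100924969-100925028 (mm9). Atp6v0c, which forms the proton-carrying ring, had differences of -0.12 on the arrays labelled knockdown and 0.34 on the arrays labelled scramble. Atp6v0d1, which couples the ring to the shaft, had -0.12 and -0.02.

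The 6 genes of the cytoplasmic sector V1 had a median effect of 0.03, with 3 above 0 and 3 below, and 0 passed limma's test (Atp6v1b2 and Atp6v1h did at an unadjusted p under 0.05). Their range ran from -0.43 for Atp6v1b2, a subunit of the ATP-splitting head, to 0.48 for Atp6v1h, a regulator of the assembled pump. With normexp and with the intensity trend Atp6v1b2 was called lower and Atp6v1h higher, and Atp6v1h was also called on genes well above background on every array. Atp6v1a, the catalytic subunit, had an effect of -0.08 ± 0.12 (SE; limma, adjusted p = 0.666), and Atp6v1c1, a stalk subunit, had -0.03 ± 0.11 (adjusted p = 0.851). Atp6v1d, part of the rotating shaft, had differences of -0.02 and 0.21 on the arrays labelled knockdown and scramble, and Atp6v1e1, another stalk subunit, had 0.23 and 0.56. Of the 9 V-ATPase genes described here, V0 and V1 together, 1 thus passed the test, Atp6v0a1, which was higher. Over all genes tested, 7.4% were called higher and 7.29% lower. These genes are not the whole pump, and of 13 other V-ATPase genes tested, listed further on, 0 passed.

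**Figure D3:**
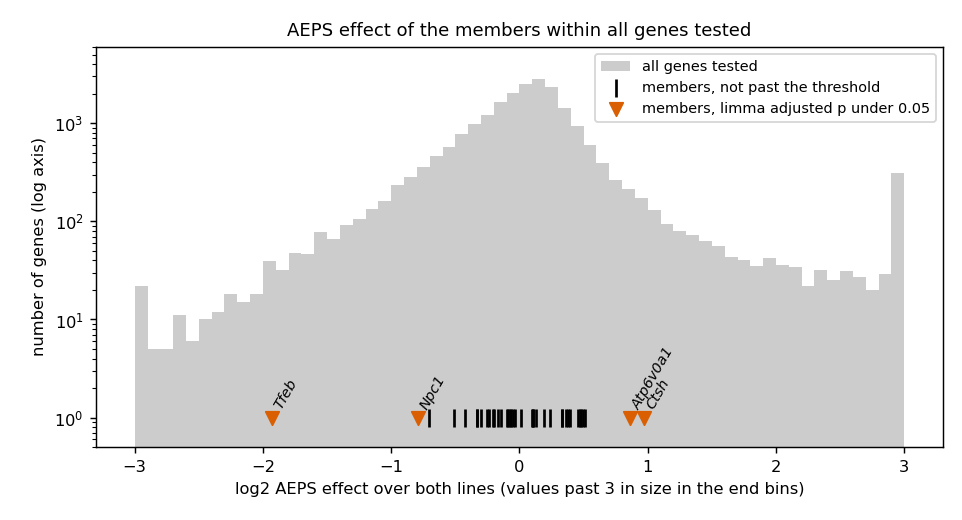
Distribution of the AEPS effect over both lines for all 22341 genes tested (grey, number of genes on a log axis; the end bins hold values past 3 in size), with the 39 genes marked at the foot as black ticks or, where the limma adjusted p is under 0.05, as orange triangles. Tfeb, Npc1, Atp6v0a1 and Ctsh are the 4 past the threshold, and the other 35 lie between -0.71 and 0.51.

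The 11 genes with CACGTG in the promoter window had a median AEPS effect of -0.08, from -0.33 for Naglu to 0.46 for Ctsl, and 0 of them passed limma's test (3 at an unadjusted p under 0.05). The 21 genes with a window and no CACGTG had a median of 0.11, and 2 of them, Tfeb and Atp6v0a1, passed. The 7 genes with no window had a median of -0.03, and 2 of them, Npc1 and Ctsh, passed. Of all genes tested, 7.4% were called higher and 7.29% lower, and 33.9% had an unadjusted p under 0.05. Lamp1 and Mcoln1, whose printed sequences repeat the motif, had effects of 0.01 and -0.23, and Naglu and Glb1, with 1 motif each, had -0.33 and -0.20.

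On the arrays labelled knockdown, 0 of the 39 genes were at least 2-fold higher with AEPS and 2 (Tfeb and Psap) at least 2-fold lower, where 4.64% of all genes were higher and 3.49% lower. On the arrays labelled scramble, 0 were at least 2-fold higher and 1 (Tfeb) lower, where 6.7% of all genes were higher and 5.22% lower. The 2 lines share no array. The AEPS effect had the same sign on both lines for 34 of the 39 genes (87.2%; 16 above 0 and 18 below), where it did for 77.7% of the 20339 genes that were well above background on every array. The median size of the difference between the 2 effects was 0.098 for the 39 genes and 0.186 for those 20339.

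The difference in response is the effect of AEPS in the line labelled knockdown less that in the line labelled scramble; it leaves no residual degree of freedom and was not tested. It reached 1 in size for 0 of the 39 genes in either direction, where 2.15% of all genes reached it. Tfeb had the largest, at 0.81: its level on the DMEM arrays was -0.13 on the one labelled knockdown and 0.59 on the one labelled scramble, while the AEPS arrays lay 0.10 apart. Psap had -0.71, with the 2 DMEM arrays 0.59 apart and the 2 AEPS arrays 0.13 apart. Both differences thus sat in the DMEM arrays.

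Between the lines, 0 of the 39 genes passed the test over both media in limma, and 2 were higher and 4 lower at an unadjusted p under 0.05 (15.4% in all, where 14.6% of all genes tested were). Of all genes tested, 0.398% were called higher in the line labelled knockdown and 0.34% lower. The median line effect was -0.09 for the 39 genes, against -0.01 over all genes tested. Of the 39, 37 (94.9%) had an effect under 0.5 in size, where 88.8% of all genes did. Under AEPS, 0 genes were at least 2-fold higher and 1 lower on the array labelled knockdown, where 1.85% of all genes were higher and 2.69% lower. In DMEM, 0 genes were higher and 1 lower, where 2.36% of all genes were higher and 1.51% lower.

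That 1 gene was Ctsc in both media. Ctsc, the dipeptidyl peptidase that activates serine proteases of immune cells, had levels of 2.36 under AEPS and 1.98 in DMEM on the arrays labelled knockdown, against 3.57 under AEPS and 3.28 in DMEM on the arrays labelled scramble. The lines did not overlap. Ctsc was 2.31-fold lower under AEPS and 2.47-fold lower in DMEM on the arrays labelled knockdown, and the line effect of -1.25 ± 0.12 missed the threshold (SE, 4 arrays; limma, adjusted p = 0.0614). It passed with normexp background correction (adjusted p = 0.00252), on genes well above background on all 4 arrays (0.0224) and with an intensity trend (0.000428). It did not pass with quantile normalization, the mean over probes, outlier spots kept or no filter on dim genes. The highest limma adjusted p over the settings was 0.314. Under the names of the value table the line effect was 1.20 (adjusted p = 0.0737), so Ctsc was higher in the table's knockdown columns. The Ctsc probe lies at chr7:95458436-95458495 (mm9).

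Most other cathepsins lay on the same side with smaller differences: 7 of the 8 line effects were below 0 and 1 above 0 (Ctsa), with a median of -0.30. With normexp background correction 6 lay below 0 and 2 above. Of all 22341 genes tested, 11487 had a line effect below 0. Ctss had line differences of -0.60 under AEPS and -0.58 in DMEM (limma effect -0.59 ± 0.11, SE; adjusted p = 0.168), and Ctsb had -0.45 and -0.44 (adjusted p = 0.238). The value table's names turn the cathepsin median to 0.26, with 7 above 0 and 1 below. The 8 glycosidase and ceramidase genes had a median line effect of -0.10 (3 above 0 and 5 below), the 6 V1 genes 0.07 (4 above 0 and 2 below) and the 3 V0 genes -0.07 (1 above 0 and 2 below). Atp6v0c had the highest line difference in DMEM, 0.71, and 0.25 under AEPS.

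**Figure D4:**
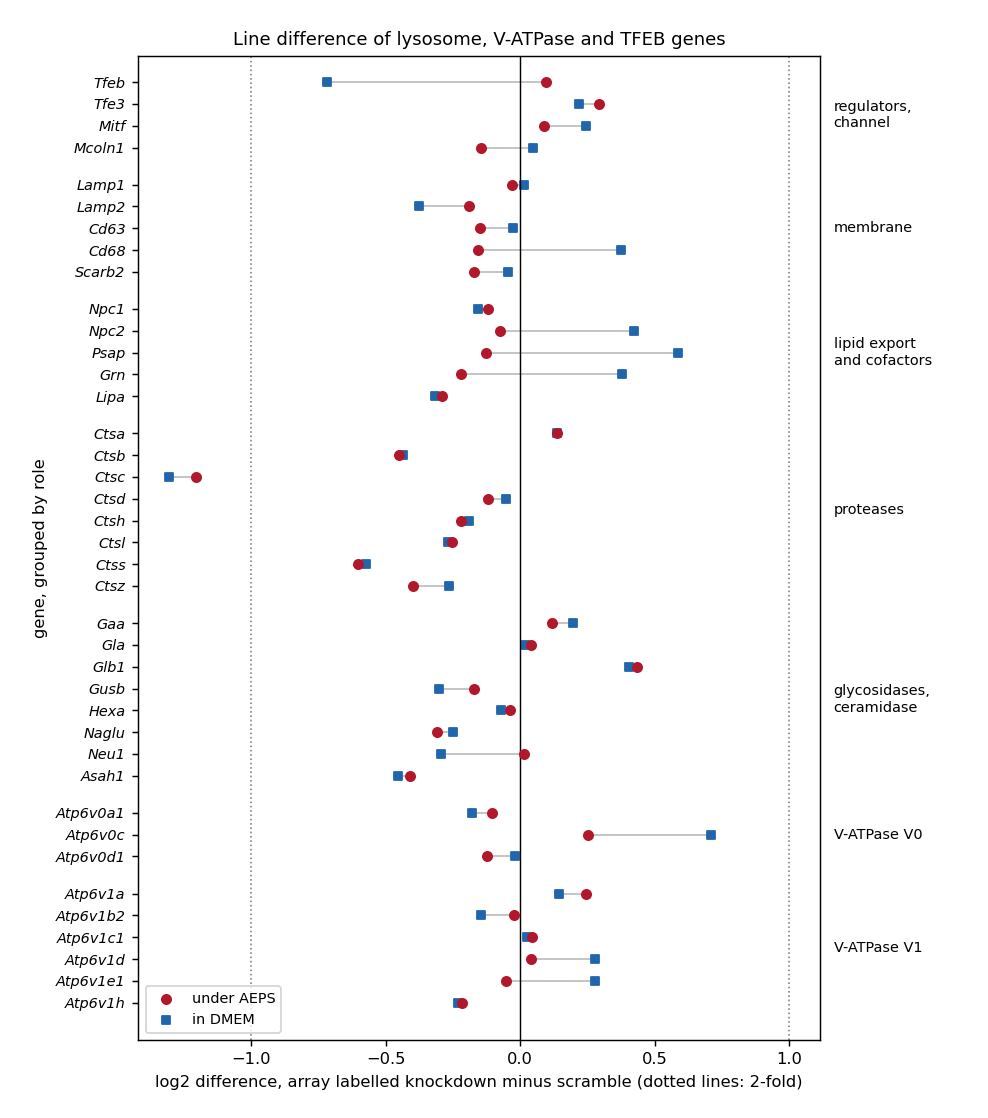
Line difference of each of the 39 genes, as the log2 difference of the array labelled knockdown minus the array labelled scramble, under AEPS (red circles) and in DMEM (blue squares), grouped by role, with dotted lines at 2-fold. Ctsc lies below -1 in both media, and Tfeb and Psap have different differences in the 2 media.

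Other genes of the pathway were counted in 5 lists, to be read against the 7.4% of all genes called higher with AEPS and the 7.29% called lower. Genes well above background on fewer than 2 arrays were not tested, among them Laptm4b of the lysosomal list, Tfec and Rragd of the mTORC1 list and Optn of the autophagy list. Of 45 other lysosomal genes reported, 2 fell with AEPS (14 lower and 3 higher at an unadjusted p under 0.05), and the median effect was -0.16. The two-pore channel gene Tpcn1 fell by 0.99 ± 0.13 (SE; limma, adjusted p = 0.0243) and the phospholipase gene Pla2g15 fell by 0.82 ± 0.14 (adjusted p = 0.0425). Of 13 other V-ATPase genes 0 passed limma's test (1 higher and 2 lower at an unadjusted p under 0.05), with a median of 0.02; 3 more were well above background on no array. Atp6v0d2, a V0 subunit of osteoclasts and macrophages, missed the threshold at -1.0 ± 0.20 (SE; limma, adjusted p = 0.0513).

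Of 21 genes that control mTORC1 and TFEB at the lysosome, 0 rose and 2 fell (2 higher and 4 lower at an unadjusted p under 0.05), with a median of -0.12. Those were Rptor, the mTORC1 scaffold, which fell by 0.66 ± 0.11 (SE; limma, adjusted p = 0.0415), and Rragb, one of the Rag GTPases that bring mTORC1 to the lysosome, which fell by 0.81 ± 0.15 (adjusted p = 0.0449). Of 20 autophagy genes, 1 rose and 3 fell (2 higher and 4 lower at an unadjusted p under 0.05), with a median of -0.07. Sqstm1, the autophagy receptor p62, rose by 1.51 ± 0.22 (adjusted p = 0.0316), with levels of 4.07 and 4.05 on the AEPS arrays labelled knockdown and scramble, against 2.94 and 2.16 on the DMEM arrays labelled knockdown and scramble. Its AEPS arrays were nearly equal and its DMEM arrays apart. Uvrag, which acts in autophagosome maturation, fell by 1.09 ± 0.16, the autophagy kinase gene Ulk1 fell by 0.74 ± 0.11 and Map1lc3b, which encodes LC3B, fell by 0.63 ± 0.11.

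Of 14 genes that sort enzymes to lysosomes, 1 rose and 3 fell (3 higher and 3 lower at an unadjusted p under 0.05), with a median of -0.01. Gnptab, which encodes the enzyme that adds the mannose 6-phosphate tag to lysosomal hydrolases, fell by 1.45 ± 0.13 (SE; limma, adjusted p = 0.014). Its levels were 2.58 and 2.33 on the AEPS arrays labelled knockdown and scramble, against 3.92 and 3.90 on the DMEM arrays labelled knockdown and scramble, with no overlap. The adaptor gene Gga2 fell by 0.90 ± 0.12 and the sorting receptor gene Sort1 by 0.68 ± 0.11, while Igf2r, a receptor for the same tag, rose by 0.73 ± 0.13. Between the lines, 2 genes of the 5 lists passed the test: Ctsk, the osteoclast collagenase, was higher on the arrays labelled knockdown (1.50 ± 0.12, SE; limma, adjusted p = 0.0426) and the peptide transporter gene Abcb9 was lower (-1.50 ± 0.11, adjusted p = 0.04). Over all genes tested, 0.398% were called higher in the line labelled knockdown and 0.34% lower. Acp5, Cst7 and Arsb also differed at least 2-fold between the lines in both media but missed the threshold. Their line effects were 2.28, 1.20 and -1.10 (limma, adjusted p = 0.0788, 0.0827 and 0.0737). Under the names of the value table the lines are exchanged, and with them the directions of all these line effects.

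**Figure D5:**
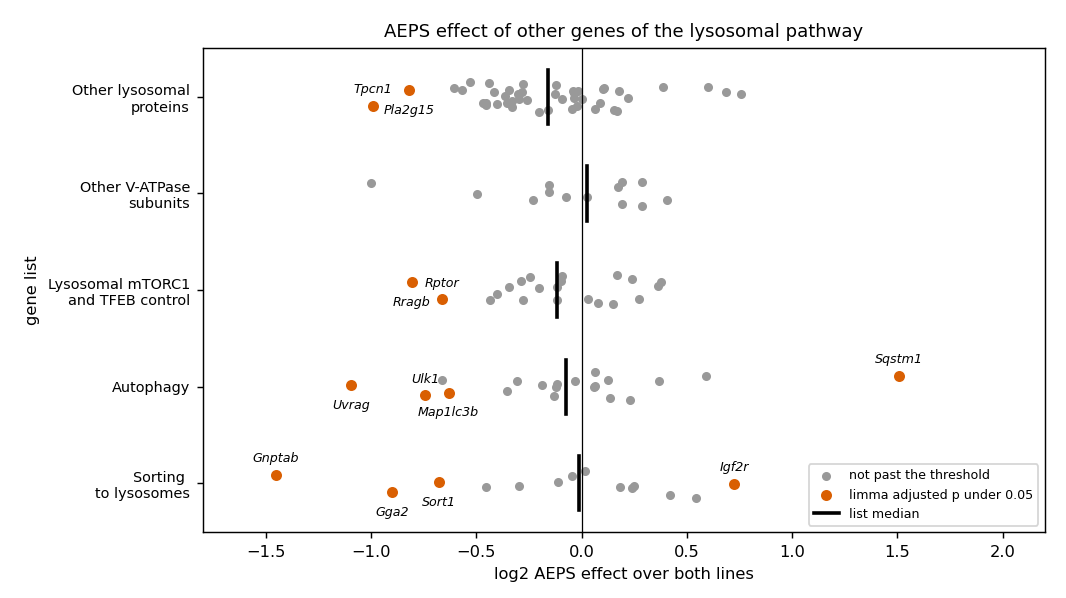
AEPS effect over both lines for the genes of 5 further lists (log2 scale, 1 point per gene tested), in orange where the limma adjusted p is under 0.05 and in grey otherwise, with the list median as a black bar. The medians lie between -0.16 and 0.02, Sqstm1 is the highest point and Gnptab the lowest.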

How the data were processed

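The authors deposited 4 scanner files with spot intensities, background-subtracted and detrended per the file headers (Agilent Feature Extraction 10.7.1.1, named in the submitters' processing notes), other marks for dim, saturated and outlier spots, and a table of log2 values, made in a way not given in the sources used here; its 4 columns share a median of 4.69. Probe positions are mm9, per the file headers. All arrays lay on 1 slide with 1 scan. Names were updated through RefSeq (GRCm38.p6) by accession for 26582 probes, symbol for 2602 and synonym for 492; 26005 kept their name.

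From these, log2 intensity minus the array's 75th percentile was taken without control and outlier spots (R 4.3.3), repeated spots were averaged, and the brightest probe stood for a gene. The 22341 genes above background by the scanner's mark on at least 2 arrays entered limma 3.58.1 (treatment and line, Benjamini-Hochberg, adjusted p under 0.05), tested on simulated data. Pairs of arrays were called at 2-fold. The number of arrays limits precision.

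The members and lists were chosen with earlier results of these data known. Members were described on every array if they regulate the group (Tfeb, Tfe3, Mitf, Mcoln1) or were called; others by range, with those nearest their role's median; further lists name limma calls for AEPS, the largest first, and 1 gene of the list of other lysosomal proteins is not reported here. Alternatives were normexp (offset 50), quantile normalization, other filters, the mean over probes, outlier spots kept, an intensity trend and the value table.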

Additional observations from a re-analysis of the deposited data

Results flagged for a closer look

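For 5 of the 39 genes the AEPS effect had opposite signs on the arrays of the 2 lines, with 1 array per group, and for each of them the difference was not tested. Cd68 had -0.52 on the arrays labelled knockdown and 0.02 on the arrays labelled scramble, a difference of -0.53. Grn had -0.47 and 0.13 on the same pairs, a difference of -0.60. Atp6v0c had -0.12 and 0.34, a difference of -0.46, and Atp6v1d had -0.02 and 0.21, a difference of -0.24. Lamp1 had -0.01 and 0.04, a difference of -0.045, which is smaller than the largest median SD of repeated spots on 1 array, 0.076. That SD is for 1 spot, and each of these differences draws on 4 arrays, so its spot error is larger than this SD.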

How the results depend on the processing

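The AEPS effects of Tfeb, Npc1, Ctsh and Atp6v0a1 kept their direction under all 9 alternatives, and their call under all but the fit with no filter on dim genes. Of the 39 genes, AEPS called 7 higher and 5 lower with normexp, 6 higher on genes well above background on all 4 arrays, 0 and 0 with no filter, and 11 higher and 5 lower with an intensity trend, against 2 and 2. In the same settings 11.3% and 11.5%, 10.4% and 11.7%, 0.751% and 0.0887%, and 16.2% and 13.8% of all genes were called higher and lower. For the line effect, 0 higher and 0 lower became 2 lower with normexp, 1 lower on genes well above background on all 4, and 1 higher and 4 lower with a trend; of all genes 1.87% and 1.41%, 0.919% and 0.737%, and 2.60% and 3.16% were called higher and lower in these settings. With the value table as labelled, the lines trade places: 1 lower on the arrays labelled knockdown with AEPS and 2 lower on those labelled scramble, and Ctsc turned to 1.13 under AEPS, 1.26 in DMEM and 1.20 over both media, so the line differences counted 1 higher and 0 lower under AEPS and 1 higher and 0 lower in DMEM. With the table's columns named by the array they match, an alternative chosen after seeing the data, Ctsc lay at -1.20 over both media. Beyond the exchanged names and the number of genes tested, the cause of these changes was not tested. Line was a term of the fit, so the AEPS effect is the mean of the differences within the lines. Pairing by replicate was not possible because the groups share replicate number 1 alone. Leaving out a replicate would empty a group, and a slide block was not run because all arrays lay on 1 slide. Fold sizes of dim probes such as Ctsh are limited by the background correction.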
